A study of Mus musculus with 28 samples.

Results

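The genes described here carry out DNA replication and mitosis. They were chosen by name: 39 symbols were looked up in the name column of the series' TPM and count tables, and all 39 were found among the 31673 genes listed there. By textbook role, 19 act in replication and 20 in mitosis. They lie on 16 chromosomes, and all 39 passed the filter on low counts, with 5 to 4351 expected counts per library. The study converts mouse fibroblasts with chemicals into endoderm progenitor cells (ciEPCs) and those into hepatocyte-like cells (ciHeps), and RNA was sequenced from 28 libraries in 9 groups.

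The embryonic fibroblasts (MEF, 3 libraries, passage 2) came from E13.5 embryos. The neonatal dermal fibroblasts (MNF) gave 2 libraries at passage 2. MEF_ciEPC are progenitors from MEF, with 10 libraries in 2 numbered series at passages 2, 3, 4, 6, 10 and 22 and at passages 1, 5, 10 and 22. MNF_ciEPC are progenitors from MNF, with 2 libraries at passages 2 and 3. Their source name in the labels reads MEF and conflicts with title and cell type, which were followed. MEF_ciHep (3 libraries) and MNF_ciHep (2 libraries) were derived from ciEPCs of passages 3 to 10. The references were embryonic stem cells (ESC, 2 libraries, passage 5), progenitors made from ESC of passages 10 to 15 (ESC_EPC, 2 libraries) and hepatocytes isolated from adult liver (pHep, 2 libraries, passage 0). All groups carry an Oct4-GFP transgenic allele on a CBA/CaJ X C57BL/6J background. For MEF, MEF_ciEPC, MEF_ciHep, ESC and ESC_EPC the labels add a cross to 129Sv/Jae females, so fibroblast source, age and strain cannot be told apart. The chemicals are not named in the labels, and the labels do not say which libraries came from separate animals or cultures, so p-values may measure technical spread.

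A cell that is about to divide first licenses its replication origins. Cdc6 and Cdt1 load the Mcm2 to Mcm7 ring, and Cdc45 and the GINS complex then turn that ring into the moving helicase. Cyclin E and E2F1 drive entry into S phase. The mitotic genes act later: cyclin B with Cdk1 starts mitosis, the kinetochore and spindle proteins separate the chromosomes, and Cdc20 opens the way out. Most of these transcripts are low in quiescent cells, as in the adult liver, where hepatocytes rarely divide, and high in dividing cells such as embryonic stem cells.

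Transcription of the S phase genes is known to be timed by E2F sites and that of the mitotic genes by a CHR element close to the start site, often with CCAAT boxes. The start-site sequences were therefore searched for these letters. RefSeq promoters (build GRCm38.p6, 250 bases before to 50 bases after the start) were matched for 30 of the 39 genes, 15 with replication roles and 15 with mitotic roles. The motifs, on both strands, were TTTCCCGC, TTTGGCGC, TTTCGCGC and TTTGCCGC for E2F, TTTGAA for CHR and CCAAT. No motif holds another, but E2F letters on opposite strands can overlap. E2F letters stood in 6 of 15 replication genes (Mcm3, Mcm5, Mcm6, Mcm7, Cdc6 and Cdt1) and in 1 of 15 mitotic genes (Cdk1), against 2.27% of all 32851 promoters. CHR letters stood in 10 of 15 mitotic genes and in 2 of 15 replication genes (Mcm2 and Cdc45), against 17.9% of all promoters. CCAAT stood in 13 of 15 mitotic and 10 of 15 replication genes, against 37.4% of all promoters. Within the 200 bases before the start alone, E2F letters were found in 4 replication genes and 1 mitotic gene, and CHR letters in 1 replication gene and 6 mitotic genes. A match is a description of letters and not a bound site. The sequences below show both kinds, 5′ to 3′, with the E2F and CHR letters in capitals. Mcm5 and Mcm6 carry overlapping E2F letters, Ccnb2 and Cdc20 carry CHR letters, and Cdk1 carries both.

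Mcm5 (chr8:75109259-75109558, plus strand): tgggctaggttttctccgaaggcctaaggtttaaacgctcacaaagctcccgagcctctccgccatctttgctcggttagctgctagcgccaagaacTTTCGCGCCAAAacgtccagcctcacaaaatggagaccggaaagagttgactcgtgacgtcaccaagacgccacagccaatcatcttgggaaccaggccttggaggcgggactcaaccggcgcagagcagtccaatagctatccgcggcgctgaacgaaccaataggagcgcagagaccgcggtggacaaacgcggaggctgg

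Mcm6 (chr1:128359656-128359955, minus strand): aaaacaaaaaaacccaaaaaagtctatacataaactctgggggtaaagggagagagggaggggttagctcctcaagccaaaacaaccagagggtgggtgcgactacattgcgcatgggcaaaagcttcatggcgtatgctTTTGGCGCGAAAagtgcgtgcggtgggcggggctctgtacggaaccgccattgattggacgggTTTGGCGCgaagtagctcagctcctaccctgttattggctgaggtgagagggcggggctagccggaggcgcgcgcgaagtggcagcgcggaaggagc

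Ccnb2 (chr9:70421505-70421804, minus strand): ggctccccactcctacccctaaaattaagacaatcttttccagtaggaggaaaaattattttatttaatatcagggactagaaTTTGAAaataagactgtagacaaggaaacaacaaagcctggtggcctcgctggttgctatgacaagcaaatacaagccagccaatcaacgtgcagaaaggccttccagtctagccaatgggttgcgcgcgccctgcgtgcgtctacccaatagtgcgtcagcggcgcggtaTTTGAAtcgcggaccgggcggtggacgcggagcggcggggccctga

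Cdc20 (chr4:118437294-118437593, minus strand): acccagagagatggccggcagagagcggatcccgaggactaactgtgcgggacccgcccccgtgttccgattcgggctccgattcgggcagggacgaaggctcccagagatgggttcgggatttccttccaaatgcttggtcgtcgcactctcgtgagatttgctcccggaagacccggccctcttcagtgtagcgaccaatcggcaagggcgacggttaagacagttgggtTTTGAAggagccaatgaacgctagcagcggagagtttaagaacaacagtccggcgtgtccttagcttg

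Cdk1 (chr10:69352863-69353162, minus strand): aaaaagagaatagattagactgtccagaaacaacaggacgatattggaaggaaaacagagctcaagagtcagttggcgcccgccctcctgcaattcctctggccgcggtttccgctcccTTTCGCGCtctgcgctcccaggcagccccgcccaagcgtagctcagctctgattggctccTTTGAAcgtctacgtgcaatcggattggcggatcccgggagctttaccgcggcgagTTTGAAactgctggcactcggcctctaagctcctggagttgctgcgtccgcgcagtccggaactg

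Libraries held 1439670 to 6133147 expected counts. Gene length minus effective length, a measure of fragment or read length, was about 50.5 bases in MEF_ciEPC and the ciHeps, 49.5 to 50.5 in pHep, 74.3 to 74.5 in MEF, MNF, MNF_ciEPC and ESC, and 187 to 196 in ESC_EPC, so several comparisons cross this difference, whose part was not tested. Summed marker TPM was checked against the labels. Fibroblast markers summed to 20290.0 to 21273 TPM in MEF and 33582 to 35401 in MNF, endoderm progenitor markers to 1918 to 3351 in 9 MEF_ciEPC libraries, and hepatocyte markers to 13373 to 31341 in MEF_ciHep and 17109 to 29222 in pHep. The hepatocyte sums do not show equal levels of each marker. Alb was 1035, 1817 and 2409 TPM in MEF_ciHep and 14800 and 11138 in pHep. Apoa1 was 22586, 8883 and 19036 against 7530 and 1408, and the fetal marker Afp 5803, 1483.5 and 6255 against 319 and 437. The library labelled MEF_ciEPC series 2 passage 22 went against its label: its pluripotency markers summed to 13936 TPM, against 9588 and 9401 in ESC and 319 to 744 in the other 9, with Pou5f1 at 1908, Sox17 at 1.27 and Foxa2 at 0 TPM. The 2 libraries labelled MNF_ciHep lacked the label's markers, with Alb at 0 and 0.56 TPM, hepatocyte markers summing to 47.4 and 147 and fibroblast markers to 5323 and 2467. Macrophage markers summed to at most 187 TPM in any library, endothelial markers to 342 and erythroid markers to 28.2, while stellate and smooth muscle markers reached 902 TPM in MEF. Results that use MEF_ciEPC are given with and without series 2 passage 22 where that changed a call.

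Summed over the 39 genes, TPM was highest in ESC and lowest in MEF_ciHep, MNF and pHep. It was 7340.3 and 7765 TPM in ESC, 5055 and 5273 in MNF_ciEPC, 3856, 4193 and 3353 in MEF, 2390.1 and 2730.0 in ESC_EPC and 2216 and 2465 in the libraries labelled MNF_ciHep. It was 876 and 970.2 TPM in MNF, 538, 783 and 962 in MEF_ciHep and 1521 and 571 in pHep. The 10 MEF_ciEPC libraries lay between 2903 and 7383 TPM, with a median of 4630.3, and without series 2 passage 22 the highest was 6068. ESC, MNF_ciEPC and MEF followed each other with no overlap, and ESC_EPC and MNF_ciHep lay below MEF and overlapped each other. MEF_ciEPC overlapped MEF and MNF_ciEPC, and MNF, MEF_ciHep and pHep overlapped one another. In bulk RNA, fewer dividing cells and less transcript per dividing cell cannot be told apart. By group mean, ESC was highest for 27 of the 39 genes and MNF_ciEPC for 9, and MEF_ciHep was lowest for 26 and MNF for 8.

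**Figure D1:**
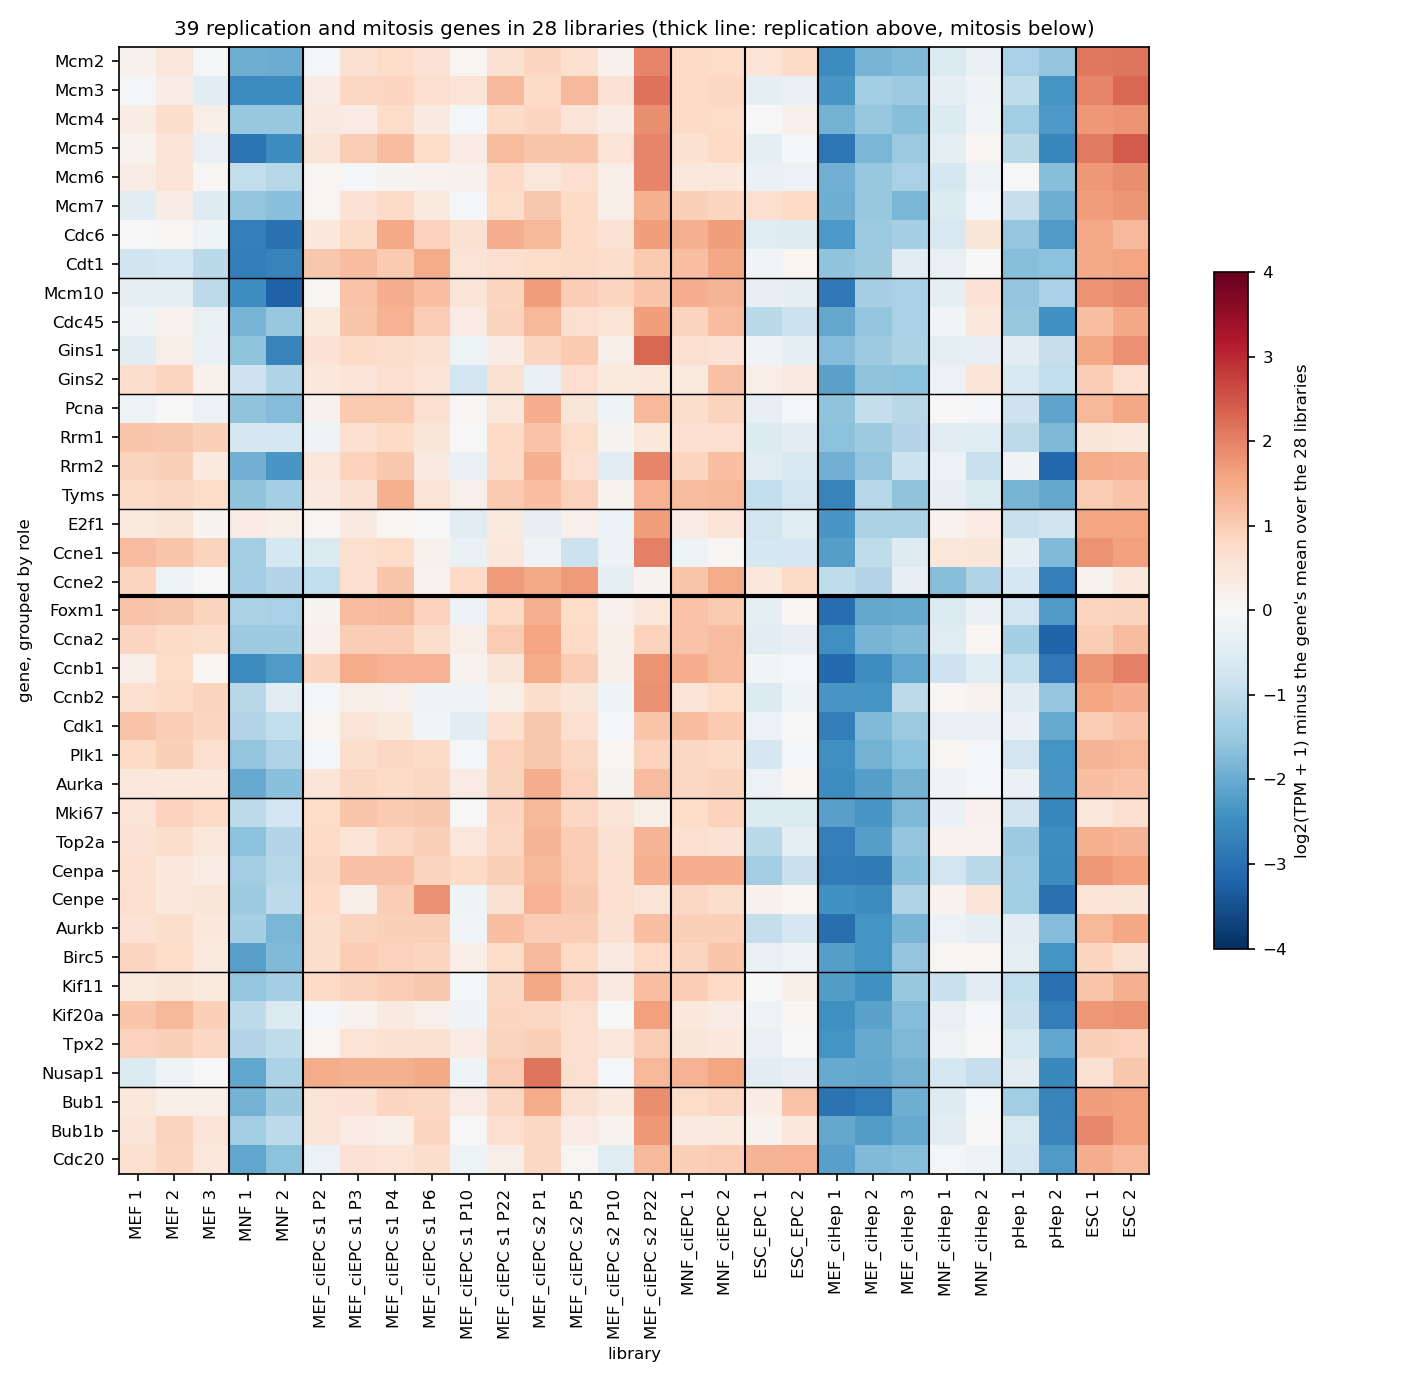
Level of each of the 39 genes (rows, grouped by role) in each of the 28 libraries (columns), as log2(TPM + 1) minus the gene's mean over all libraries, so red is above and blue below that mean. MNF, MEF_ciHep and the second pHep library are blue in most rows, and ESC and MEF_ciEPC series 2 passage 22 (MEF_ciEPC s2 P22) are the reddest for Mcm2 to Mcm7.

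The genes did not keep one proportion between the replication and the mitotic genes. The replication genes summed to 0.691 to 0.801 times the mitotic genes in MEF and to 1.15 and 1.24 times in ESC. In MEF_ciHep the ratio was 1.35 to 1.73, the highest of any group, where the replication genes summed to 321, 496 and 553 TPM and the mitotic genes to 217, 287 and 409 TPM. The libraries labelled MNF_ciHep had ratios of 0.928 and 0.996, and pHep had 0.92 and 1.36. MEF and ESC did not overlap in this ratio, nor did MEF_ciHep and ESC. Over the 28 libraries the median level was highest for Top2a, the topoisomerase that untangles chromosomes, at 238 TPM, and for Pcna, the clamp that holds polymerase on DNA, at 206 TPM. It was lowest for Ccne2, a cyclin E, at 17.9 TPM.

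The levels of genes from each role show this library by library. Mcm2 stood at 76.4, 93.6 and 64.8 TPM in MEF, 16.9 and 16.6 in MNF, 121 and 115 in MNF_ciEPC, 299.6 and 305 in ESC, 101 and 116 in ESC_EPC, 11.1, 18 and 19.6 in MEF_ciHep, 45.2 and 56 in MNF_ciHep and 27.3 and 22.3 in pHep, and between 64.6 and 266 TPM, with a median of 105, in MEF_ciEPC. This subunit of the loaded helicase ring was highest in ESC, and MNF, MEF_ciHep and pHep lay below every MEF library. Pcna stood at 179, 208 and 175 TPM in MEF, 66.5 and 61.2 in MNF, 340.1 and 388 in MNF_ciEPC, 522 and 612 in ESC, 166 and 195 in ESC_EPC, 67.5, 106 and 95 in MEF_ciHep, 203 and 194 in MNF_ciHep and 116 and 46.7 in pHep, and between 178 and 571 TPM, with a median of 305, in MEF_ciEPC. The clamp was lowest in the second pHep library, and every MNF and MEF_ciHep library lay below every MEF library.

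Among the genes of mitosis, Plk1 stood at 115, 129 and 103 TPM in MEF, 21.3 and 27.6 in MNF, 117 and 114 in MNF_ciEPC, 173 and 169 in ESC, 41.2 and 63 in ESC_EPC, 11.2, 17.3 and 20.4 in MEF_ciHep, 70.7 and 63.2 in MNF_ciHep and 38.8 and 11.7 in pHep, and between 64.2 and 139.8 TPM, with a median of 115, in MEF_ciEPC. Plk1 is the kinase that drives centrosome maturation and mitotic entry. Top2a stood at 241, 267 and 222 TPM in MEF, 51.2 and 71.3 in MNF, 259 and 243 in MNF_ciEPC, 433 and 418 in ESC, 75.9 and 124 in ESC_EPC, 23.3, 34.1 and 53.2 in MEF_ciHep, 179.6 and 180.0 in MNF_ciHep and 58.9 and 27.8 in pHep, and between 222 and 421 TPM, with a median of 287, in MEF_ciEPC. Every MEF_ciHep library and both MNF libraries lay below every MEF library for both genes. Birc5 stood at 188, 172 and 136 TPM in MEF, 22.1 and 29.8 in MNF, 186 and 225 in MNF_ciEPC, 187 and 159.5 in ESC, 83.8 and 91 in ESC_EPC, 21.5, 19 and 33.6 in MEF_ciHep, 108 and 109 in MNF_ciHep and 80.8 and 19 in pHep, and between 125 and 254 TPM, with a median of 181, in MEF_ciEPC. Birc5 encodes survivin, a subunit of the chromosomal passenger complex.

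The other genes of licensing and firing gave these values. Mcm5 stood at 89.8, 117 and 66.9 TPM in MEF, 9.89 and 13.3 in MNF, 126 and 142 in MNF_ciEPC, 347 and 450.2 in ESC, 62.2 and 79.6 in ESC_EPC, 10.2, 22.2 and 28.8 in MEF_ciHep, 61.5 and 86.7 in MNF_ciHep and 37.8 and 12.6 in pHep, and between 102 and 319 TPM, with a median of 170.4, in MEF_ciEPC. All MEF_ciEPC libraries lay below ESC for this ring subunit. Cdc6 stood at 18.2, 19 and 16.1 TPM in MEF, 1.91 and 1.44 in MNF, 50.3 and 59.7 in MNF_ciEPC, 53.5 and 45.8 in ESC, 12.7 and 12.5 in ESC_EPC, 2.87, 5.8 and 6.64 in MEF_ciHep, 11.3 and 25.6 in MNF_ciHep and 5.62 and 3.01 in pHep, and between 24.6 and 60.8 TPM, with a median of 33.6, in MEF_ciEPC. This loader had its lowest values in MNF. Cdc45 stood at 25.4, 32.2 and 23.5 TPM in MEF, 7.32 and 9.35 in MNF, 54.8 and 69 in MNF_ciEPC, 68 and 86.1 in ESC, 13.1 and 15.6 in ESC_EPC, 6.21, 9.06 and 11.1 in MEF_ciHep, 26.9 and 38.7 in MNF_ciHep and 9.52 and 4.56 in pHep, and between 36.2 and 95 TPM, with a median of 56.9, in MEF_ciEPC. Every MNF, ESC_EPC, MEF_ciHep and pHep library lay below every MEF library for this helicase partner.

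Among the genes of nucleotide supply and S phase entry, Rrm2 stood at 242, 253 and 172 TPM in MEF, 33.6 and 25 in MNF, 235 and 300.2 in MNF_ciEPC, 362 and 349.7 in ESC, 95.6 and 85.2 in ESC_EPC, 33.6, 42.6 and 71.1 in MEF_ciHep, 110.0 and 70.05 in MNF_ciHep and 118 and 14 in pHep, and between 96.8 and 510.0 TPM, with a median of 215, in MEF_ciEPC. The pHep libraries spanned a wide range for this reductase subunit. E2f1 stood at 29, 30.5 and 23.6 TPM in MEF, 27.1 and 25.4 in MNF, 26.7 and 32.3 in MNF_ciEPC, 67 and 67.3 in ESC, 12.6 and 15.2 in ESC_EPC, 3.47, 8.42 and 8.43 in MEF_ciHep, 24.1 and 27.3 in MNF_ciHep and 11.2 and 12 in pHep, and between 15.9 and 70.6 TPM, with a median of 22.5, in MEF_ciEPC. MEF, MNF, MNF_ciEPC and MNF_ciHep overlapped or lay close together for this factor, and MEF_ciHep was lowest. Ccne1 stood at 86.3, 77.6 and 67.4 TPM in MEF, 13.3 and 21.7 in MNF, 30.8 and 37.1 in MNF_ciEPC, 128 and 115 in ESC, 21.5 and 22 in ESC_EPC, 6.98, 17 and 24.6 in MEF_ciHep, 48.8 and 51 in MNF_ciHep and 26.9 and 9.92 in pHep, and between 19.4 and 148 TPM, with a median of 36.4, in MEF_ciEPC. Both MNF_ciEPC libraries lay below every MEF library. Ccne2 stood at 30.5, 14.2 and 16.4 TPM in MEF, 5.84 and 6.81 in MNF, 37 and 48 in MNF_ciEPC, 18.3 and 22.2 in ESC, 22.6 and 28.6 in ESC_EPC, 7.74, 6.75 and 12.8 in MEF_ciHep, 4.38 and 6.52 in MNF_ciHep and 9.75 and 1.64 in pHep, and between 7.82 and 56.1 TPM, with a median of 28.1, in MEF_ciEPC. For this cyclin ESC lay below MNF_ciEPC, and MNF_ciHep lay below MEF_ciHep.

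For the regulators of mitotic entry, Foxm1 stood at 74.3, 70.6 and 62.7 TPM in MEF, 13.4 and 12.8 in MNF, 74.7 and 70.05 in MNF_ciEPC, 61.1 and 62 in ESC, 25.4 and 34.4 in ESC_EPC, 3.13, 7.27 and 7.53 in MEF_ciHep, 22.1 and 27.8 in MNF_ciHep and 19 and 6.1 in pHep, and between 27.9 and 91.4 TPM, with a median of 57.1, in MEF_ciEPC. MEF, MNF_ciEPC and ESC lay within a narrow range for this transcription factor. Cdk1 stood at 335, 307 and 276 TPM in MEF, 66.8 and 77.7 in MNF, 362 and 319.6 in MNF_ciEPC, 313 and 337 in ESC, 131 and 155 in ESC_EPC, 21.7, 44.6 and 53.5 in MEF_ciHep, 125 and 126 in MNF_ciHep and 127 and 36.9 in pHep, and between 110.5 and 334 TPM, with a median of 209, in MEF_ciEPC. MEF, MNF_ciEPC and ESC overlapped for this kinase. Ccnb1 stood at 152, 211 and 133 TPM in MEF, 21.1 and 25.7 in MNF, 351 and 305 in MNF_ciEPC, 436 and 512 in ESC, 116 and 119.8 in ESC_EPC, 13.8, 21.7 and 29 in MEF_ciHep, 71.4 and 89.9 in MNF_ciHep and 63.9 and 16.5 in pHep, and between 139 and 438 TPM, with a median of 290.0, in MEF_ciEPC. Unlike its partner kinase, this cyclin had no overlap between MEF, MNF_ciEPC and ESC. Mki67 stood at 61.6, 79.7 and 71.1 TPM in MEF, 19.4 and 23.8 in MNF, 69.2 and 79.5 in MNF_ciEPC, 57.1 and 65.6 in ESC, 27.3 and 28.2 in ESC_EPC, 8.42, 7.41 and 11.3 in MEF_ciHep, 34.4 and 47.2 in MNF_ciHep and 23.6 and 5.9 in pHep, and between 41.9 and 106 TPM, with a median of 75.3, in MEF_ciEPC. ESC was not the highest group for this marker. Cdc20 stood at 146, 171 and 125 TPM in MEF, 21.5 and 29.5 in MNF, 184 and 192 in MNF_ciEPC, 259.7 and 233 in ESC, 246 and 249 in ESC_EPC, 20.2, 26.8 and 28.4 in MEF_ciHep, 89 and 82.5 in MNF_ciHep and 54.9 and 18.8 in pHep, and between 66.6 and 234 TPM, with a median of 124, in MEF_ciEPC. ESC and ESC_EPC overlapped for this activator of mitotic exit.

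**Figure D2:**
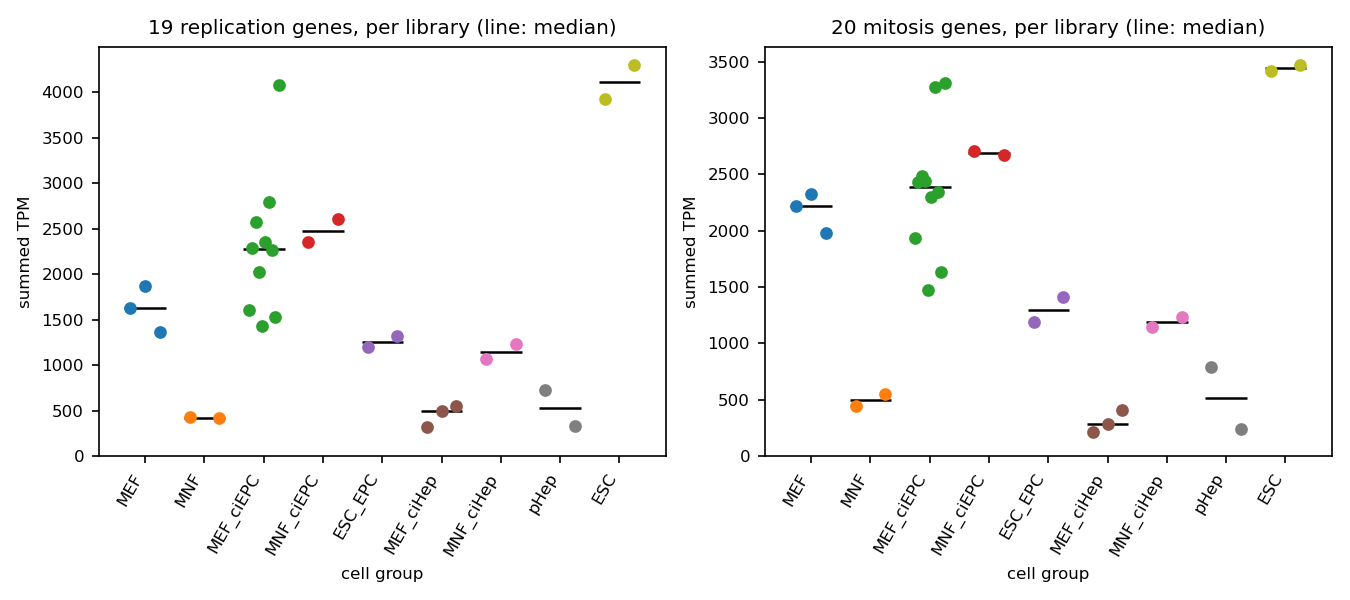
Summed TPM of the 19 replication genes (left) and the 20 mitosis genes (right) in each library (points) of the 9 groups, with the group median as a line. MNF (415 and 434 TPM in replication, 443 and 555 in mitosis) and MEF_ciHep lie far below MEF and both ciEPC groups.

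The fibroblast sources were compared first. Nearly the whole set was lower in MNF than in MEF: 37 of 39 genes were called lower and 0 higher by edgeR's quasi-likelihood test (adjusted p under 0.05 and at least 2-fold, which is the meaning of called throughout), with a median log2 fold change of −2.26. Over the 16062 genes tested the median was 0, 7.81% were called lower and 8.6% higher. Fibroblast markers summed to 20290.0 to 21273 TPM in MEF and 33582 to 35401 in MNF, and stellate and smooth muscle markers to 519 to 902 and 182 to 357, and their part was not tested. All 39 fitted values were negative, and 38 genes had MEF and MNF libraries that did not overlap. Overlap was not counted over all genes, so that 38 has no background beside it. At an unadjusted p under 0.05, 0 genes were higher and 38 lower, and DESeq2 and limma called 0 higher. In the comparisons that follow, counts of 0 in one direction went with 0 genes at an unadjusted p under 0.05 in that direction, and with 0 by DESeq2 and limma, except where another value is given.

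Among the licensing genes, the loader Cdc6 stood at 18.2, 19 and 16.1 TPM in the 3 MEF libraries and at 1.91 and 1.44 in the 2 MNF libraries. The helicase subunit Mcm5 stood at 89.8, 117 and 66.9 TPM in MEF and 9.89 and 13.3 in MNF. Every MEF library lay above both MNF libraries for each gene. The fitted log2 fold changes were −3.35 ± 0.44 (SE, edgeR adjusted p = 0.000127) for Cdc6 and −2.96 ± 0.43 (SE, edgeR adjusted p = 0.000242) for Mcm5. Rrm2, the small subunit of ribonucleotide reductase, which makes the DNA precursors, had 242, 253 and 172 TPM in MEF and 33.6 and 25 in MNF, a change of −3.16 ± 0.60 (SE, edgeR adjusted p = 0.00147). The mitotic cyclin gene Ccnb1 had 152, 211 and 133 TPM in MEF and 21.1 and 25.7 in MNF, a change of −2.75 ± 0.49 (SE, edgeR adjusted p = 0.00094), and its partner kinase Cdk1 had 335, 307 and 276 and 66.8 and 77.7. The 2 genes not called were Gins2, a GINS subunit, with −0.49 ± 0.21 (SE, edgeR adjusted p = 0.0906), and E2f1, the S phase transcription factor, with −0.16 ± 0.24 (SE, edgeR adjusted p = 0.692). Gins2 TPM was 91.1, 102 and 61.9 in MEF and 30.4 and 23.3 in MNF with no overlap, and its deposited length was 1145, 1153 and 1252 bases in MEF and 2729 and 2679 in MNF. E2f1 stood at 29, 30.5 and 23.6 TPM in MEF and 27.1 and 25.4 in MNF, so the groups overlapped. The remaining called genes fell by 1.33 (Tyms) to 2.73 (Birc5) on the log2 scale. Tyms stood at 132, 138 and 129 TPM in MEF and 24.7 and 29.35 in MNF. Its deposited length was 1231, 1394 and 1131 bases in MEF and 2966 and 2163 in MNF, so counts and TPM differ in size on this gene.

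Other genes of the cycle were counted from lists that exclude the 39. In MNF, 38 of 39 spindle, condensin and cytokinesis genes were called lower than in MEF, as were 19 of 26 kinetochore and checkpoint genes. Of the replication fork genes 20 of 31 were lower and 1 higher, and 9 of 18 origin genes, 10 of 17 nucleotide supply genes and 9 of 18 G1 to S regulators were lower. Of 21 brakes on the cycle, 4 were higher and 2 lower.

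Conversion of MNF to ciEPC went with a rise of nearly the whole set. In MNF_ciEPC against MNF, 36 of 39 genes were called higher and 0 lower, with a median log2 fold change of 2.35 against 0 for all genes tested. Of those, 18.4% were called higher and 21.8% lower. All 20 mitotic genes and 16 of 19 replication genes rose, and the licensing and helicase genes had a median of 2.93. The fibroblast marker sum moved with them, from 33582 and 35401 TPM in MNF to 628 and 526 in MNF_ciEPC, and its part in the result was not tested. Both groups have the same implied read length.

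The largest rises were those of 2 licensing genes and 1 origin firing gene. Cdc6 went from 1.91 and 1.44 TPM in MNF to 50.3 and 59.7 in MNF_ciEPC, a log2 fold change of 4.74 ± 0.46 (SE, edgeR adjusted p = 8.02e-07). Cdt1, the other loader of the Mcm ring, went from 9.76 and 10.6 to 166 and 214 TPM, a change of 4.42 ± 0.38 (SE, edgeR adjusted p = 2.28e-07). Mcm10, which helps to start the loaded helicase, went from 4.38 and 2.24 to 81.6 and 77.5 TPM, a change of 4.32 ± 0.34 (SE, edgeR adjusted p = 1.13e-07). For these 3 genes every MNF_ciEPC library was far above every MNF library. Among the mitotic genes Ccnb1 rose most, from 21.1 and 25.7 to 351 and 305 TPM, by 3.55 ± 0.53 (SE, edgeR adjusted p = 4.08e-05). Cdk1 rose from 66.8 and 77.7 to 362 and 319.6 TPM, by 2.10 ± 0.40 (SE, edgeR adjusted p = 0.00041). Mki67, the proliferation marker Ki-67 that coats mitotic chromosomes, went from 19.4 and 23.8 to 69.2 and 79.5 TPM, by 1.65 ± 0.45 (SE, edgeR adjusted p = 0.00591), one of the smaller changes of the set. The 3 genes not called were E2f1 at 0.029 ± 0.26 (SE, edgeR adjusted p = 0.962), Gins2 at 0.20 ± 0.22 (SE, edgeR adjusted p = 0.465) and Ccne1, a cyclin E, at 0.88 ± 0.42 (SE, edgeR adjusted p = 0.0923). Gins2 TPM went from 30.4 and 23.3 in MNF to 72.7 and 124 in MNF_ciEPC, without overlap, while its deposited length was 2729 and 2679 bases in MNF and 1172 and 868 in MNF_ciEPC, so counts and TPM differ on this gene. Orc1, a subunit of the origin recognition complex, changed by 4.38 ± 0.36 (SE, edgeR adjusted p = 1.54e-07), and Gmnn, geminin, the inhibitor of Cdt1, by 4.22 ± 0.44 (SE, edgeR adjusted p = 1.37e-06). Of the lists without these 39 genes, 34 of 39 spindle, 20 of 26 kinetochore, 23 of 31 fork (1 lower), 11 of 18 origin and 10 of 18 G1 to S genes (2 lower) were called higher, as were 7 of 17 nucleotide supply genes (3 lower).

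Few of the genes passed the test in the conversion of MEF. In MEF_ciEPC against MEF, 3 of 39 genes were called higher and 0 lower, with a median log2 fold change of 0.087 against 0.12 for all genes tested. Without series 2 passage 22 that median was −0.033, with 19 genes positive and 20 negative. The count is below the background, in which 17.6% of all genes were called higher and 15.8% lower. Fibroblast markers summed to 20290.0 to 21273 TPM in MEF and 56.5 to 840.3 in MEF_ciEPC, and their part was not tested. The called genes were Cdt1, Mcm10 and Nusap1, a spindle protein that bundles microtubules. Cdt1 stood at 40.8, 43.7 and 33.8 TPM in MEF and between 105 and 204 TPM, with a median of 135, in MEF_ciEPC, a log2 fold change of 1.59 ± 0.29 (SE, edgeR adjusted p = 0.000315). Mcm10 stood at 22.8, 22.9 and 13.8 TPM in MEF and between 30.7 and 95 TPM, with a median of 62.1, in MEF_ciEPC, a change of 1.51 ± 0.26 (SE, edgeR adjusted p = 0.000178). All 10 MEF_ciEPC libraries exceeded all 3 MEF libraries for both genes. Nusap1 changed by 1.19 ± 0.39 (SE, edgeR adjusted p = 0.0198), and its MEF_ciEPC libraries, between 29.5 and 149.9 TPM, with a median of 86.9, overlapped MEF at 22.1, 29.1 and 32.7.

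At an unadjusted p under 0.05, 9 genes were higher and 3 lower. Ccne1 was not called, with 86.3, 77.6 and 67.4 TPM in MEF, between 19.4 and 148 TPM, with a median of 36.4, in MEF_ciEPC and a log2 fold change of −0.95 ± 0.37 (SE, edgeR adjusted p = 0.0449). Its highest MEF_ciEPC value is that of series 2 passage 22. Without that library Ccne1 was called lower, at −1.42 ± 0.40 (SE, edgeR adjusted p = 0.00774), and the counts were 3 higher and 1 lower. Leaving out series 1 gave 6 genes higher, and leaving out the third MEF library gave 1 lower. The replication genes had a median of 0.35 and the mitotic genes of −0.087, and without series 2 passage 22 these were 0.18 and −0.059. From the other lists, 6 of 18 origin genes and 4 of 31 fork genes were called higher with 0 lower. The counts were 0 of 26 for kinetochore genes, 1 higher and 1 lower of 39 for spindle genes, 1 and 3 of 17 for nucleotide supply and 3 and 5 of 18 for G1 to S regulators.

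The difference between these conversions was tested itself, as an interaction. For 36 of the 39 genes the change from MNF to MNF_ciEPC was called larger than the change from MEF to MEF_ciEPC, and for 0 smaller, with a median difference of 2.20 on the log2 scale against −0.18 for all genes. Of all genes tested, 6.16% were called higher in this sense and 8.94% lower. The largest differences were those of Cdc6 at 3.88 ± 0.57 (SE, edgeR adjusted p = 0.000667), Rrm2 at 3.19 ± 0.81 (SE, edgeR adjusted p = 0.014), Cdc20 at 3.10 ± 0.56 (SE, edgeR adjusted p = 0.0023) and Ccnb1 at 3.03 ± 0.66 (SE, edgeR adjusted p = 0.00663). Not called were Mcm6 at 1.31 ± 0.57 (SE, edgeR adjusted p = 0.124), Gins2, whose length differed in the same way, at 0.91 ± 0.30 (SE, edgeR adjusted p = 0.0463) and E2f1 at 0.25 ± 0.36 (SE, edgeR adjusted p = 0.687). The count rests on 2 MNF libraries: without the first of them 21 genes were called. Without series 2 passage 22, Mki67 alone lost its call (1.72 ± 0.59, SE, edgeR adjusted p = 0.053), leaving 35. The interaction uses the same libraries as the comparisons above and is no separate evidence for them.

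No difference between the ciEPCs of the 2 origins passed the test. In MNF_ciEPC against MEF_ciEPC, 0 of 39 genes were called in either direction by edgeR, 0 had an unadjusted p under 0.05, and DESeq2 and limma called 0 as well. Of all genes, 0.971% were called higher and 3.47% lower. The fitted log2 differences ran from −0.55 (Ccne1) to 0.53 (Cdc6), with a median of 0.10. The standard error for Ccne1 was 0.40 and for Cdc6 0.36. A call needed at least 2-fold and an adjusted p under 0.05 over all genes tested, so differences of several such errors could go uncalled. Cdc7, an origin gene outside the set that was called here, had 1.12 ± 0.26 (SE, edgeR adjusted p = 0.0232). Without series 2 passage 22 the range was −0.29 to 0.68 with a median of 0.22, with 0 genes called and 2 replication genes higher at an unadjusted p under 0.05. Cdc6 stood at 50.3 and 59.7 TPM in MNF_ciEPC and between 24.6 and 60.8 TPM, with a median of 33.6, in MEF_ciEPC, so the groups overlapped. From the other lists, 1 origin gene and 1 G1 to S gene were called higher and 1 brake lower.

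**Figure D3:**
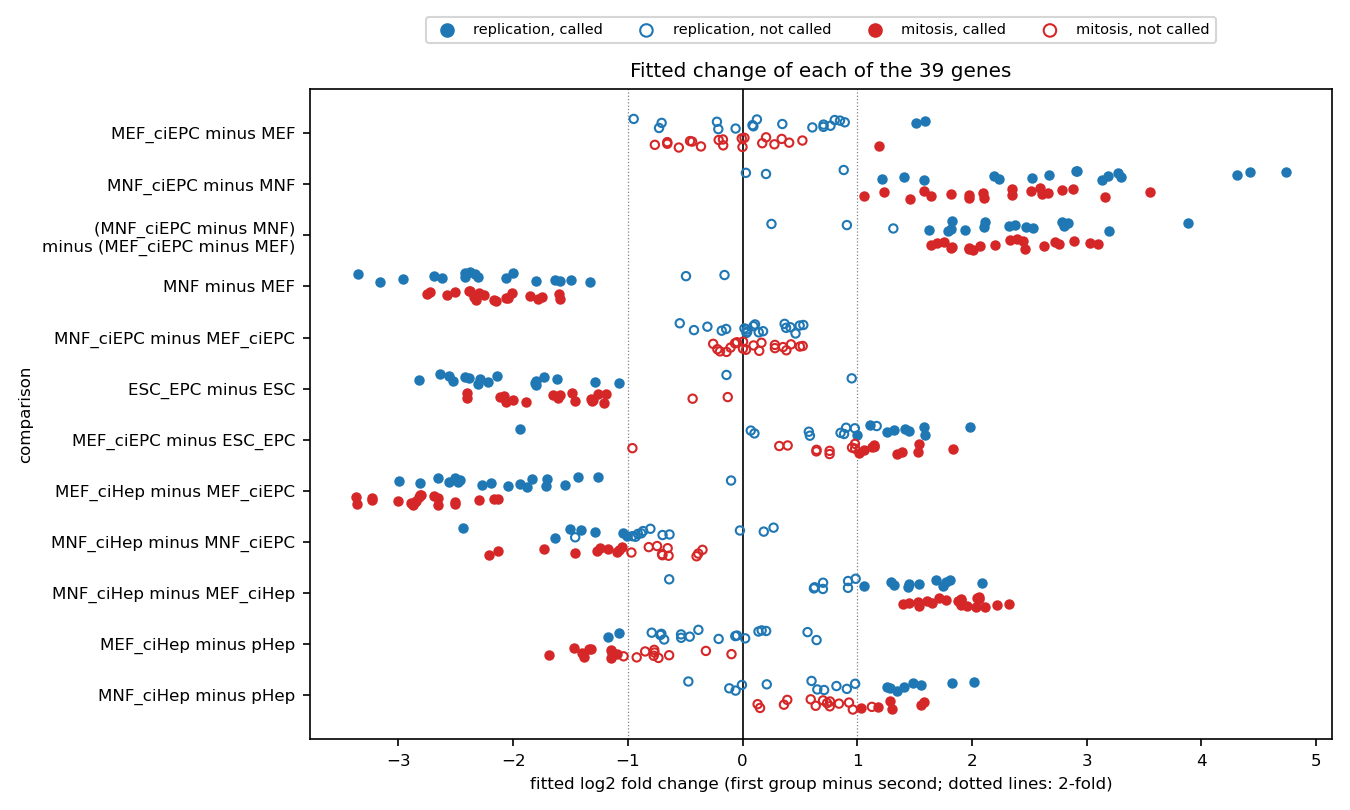
Fitted log2 fold change of each of the 39 genes in 12 comparisons, replication genes in blue and mitosis genes in red, filled where called and open where not, with dotted lines at 2-fold. The points for MNF minus MEF and for MNF_ciEPC minus MNF lie on opposite sides of 0, and those for MEF_ciEPC minus MEF and MNF_ciEPC minus MEF_ciEPC straddle it.

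Over passages the MEF_ciEPC libraries varied without a trend that passed the test. In a fit with series and log2 passage, 0 of 39 genes were called by edgeR at an adjusted p under 0.05, the lowest being 0.347 (Mcm6), and 1 gene, Mcm6, had an unadjusted p under 0.05, and DESeq2 and limma called 0. The slopes were positive for 26 genes and negative for 13, but without series 2 passage 22 they were positive for 9 and negative for 30. Without it 0 genes were called, and the genes at an unadjusted p under 0.05 were 0 rising and 2 falling, both mitotic. Of the 12390 genes tested, 0.00807% were called rising and 0.0161% falling. Passage 10 libraries held the lowest value of 28 genes in all: 21 genes had the lowest of their 10 values in series 1 passage 10 and 7 in series 2 passage 10, and 11 had the highest in series 2 passage 1 and 22 in series 2 passage 22. The same counts were not made over all genes, and genes measured in 1 library are not separate observations. Ccnb1 stood at 230.2, 355, 334, 331, 139 and 179 TPM in series 1 at passages 2, 3, 4, 6, 10 and 22. In series 2 it stood at 353, 249, 150.03 and 438 TPM at passages 1, 5, 10 and 22. The passage 10 libraries were the lowest of both series. Mki67 went through 69.99, 91.1, 87.8, 89.6, 41.9 and 76.4 TPM in series 1 and 106, 74.2, 60.5 and 48.5 in series 2. Ccne1 went through 23.4, 56.3, 59.8, 40.5, 29.6 and 48.2 TPM in series 1 and 32.2, 19.4, 30.3 and 148 in series 2, with the last value above both ESC libraries (128 and 115). Its fitted slope per doubling of passage was 0.32 ± 0.19 (SE) with that library and −0.10 without it.

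Series 2 passage 22 exceeded the other 9 MEF_ciEPC libraries for 22 of the 39 genes and was below all of them for 0. For 31 genes it lay closer, on the log2 scale, to the ESC mean than to the median of the other 9. These counts were not made over all genes, so they do not show a trait particular to this set. Mcm5 had 319 TPM there, against 347 and 450.2 in ESC and 102 to 198 in the other 9. E2f1 had 70.6 TPM, against 67 and 67.3 in ESC and 15.9 to 29 in the rest. These are values of 1 library.

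**Figure D4:**
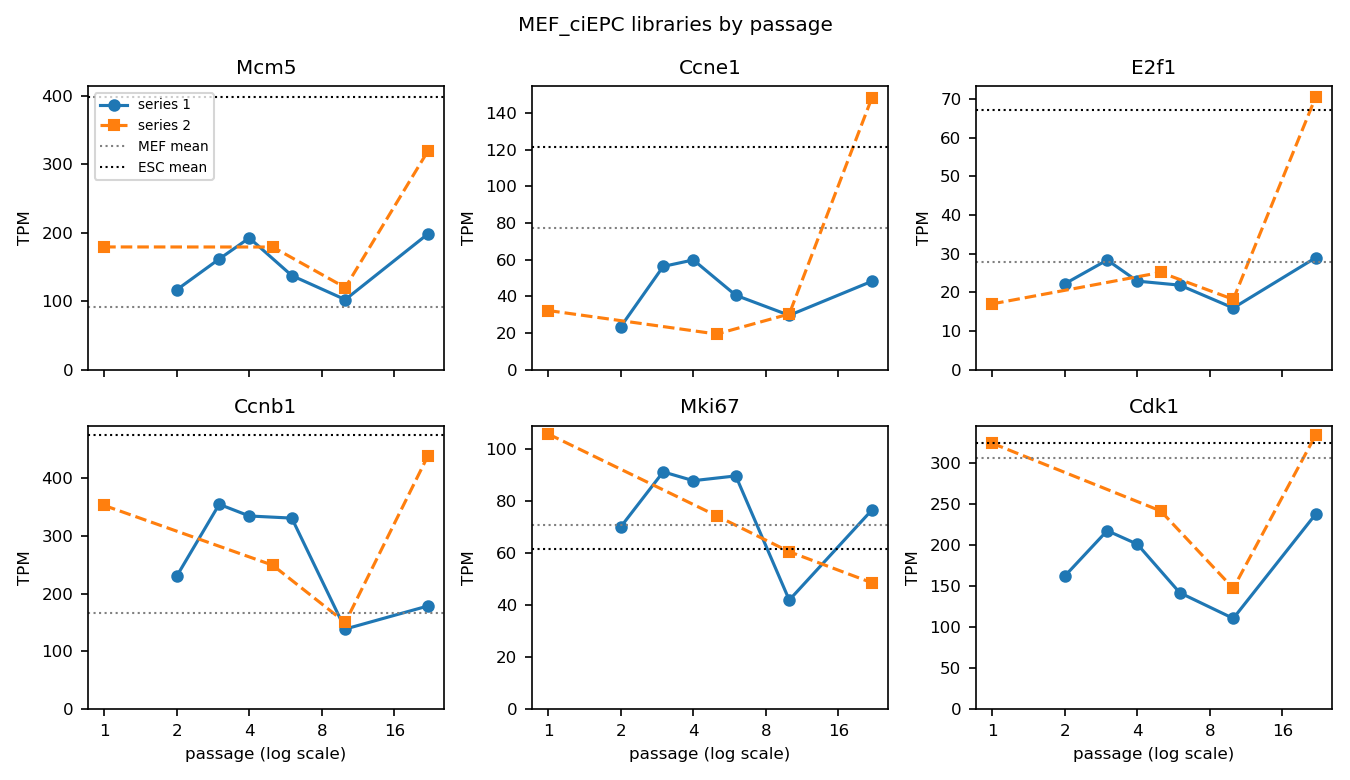
TPM of 6 of the genes against passage (log scale) in the MEF_ciEPC libraries of series 1 (circles) and series 2 (squares), with dotted lines at the MEF and ESC means. Passage 10 is low in both series for Ccnb1 and Cdk1, and series 2 passage 22 stands at the ESC level for E2f1 and above it for Ccne1.

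Most of the set was lower in progenitors made from ESC than in ESC. In ESC_EPC against ESC, 35 of 39 genes were called lower and 0 higher, with a median log2 fold change of −1.80 against 0.0012 for all genes. At an unadjusted p under 0.05, 1 gene (Gins2) was higher. Of all genes, 14.7% were called lower and 18.5% higher. Mcm3 went from 372 and 470.4 TPM in ESC to 72.1 and 76.5 in ESC_EPC, a change of −2.82 ± 0.32 (SE, edgeR adjusted p = 7.63e-06). Ccne1 went from 128 and 115 to 21.5 and 22 TPM, a change of −2.64 ± 0.43 (SE, edgeR adjusted p = 0.000173), and Cdc45, the helicase partner, from 68 and 86.1 to 13.1 and 15.6 TPM, a change of −2.56 ± 0.32 (SE, edgeR adjusted p = 2.03e-05). The groups did not overlap for these 3 genes. Mcm5 changed by −2.52 ± 0.42 (SE, edgeR adjusted p = 0.000226). E2f1 fell here too, from 67 and 67.3 to 12.6 and 15.2 TPM, a change of −2.42 ± 0.28 (SE, edgeR adjusted p = 9.39e-06). The implied fragment length differs between these groups, and pluripotency markers summed to 9588 and 9401 TPM in ESC and 560.1 and 772 in ESC_EPC, and the part of either was not tested.

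Cdc20, the activator of the anaphase-promoting complex, did not fall with the set. It stood at 259.7 and 233 TPM in ESC and 246 and 249 in ESC_EPC, with a change of −0.13 ± 0.39 (SE, edgeR adjusted p = 0.834) and overlapping groups. The motor gene Cenpe (−0.43 ± 0.36, SE, edgeR adjusted p = 0.347) and Ccne2 (−0.14 ± 0.56, SE, edgeR adjusted p = 0.884) were not called either. Gins2 had a positive fitted value of 0.95 ± 0.22 (SE, edgeR adjusted p = 0.00254), under 2-fold and so not called, while its TPM was 110.4 and 87.9 in ESC and 66.1 and 71.1 in ESC_EPC, which is the other way round. Of the other lists, 33 of 39 spindle genes (1 higher), 23 of 31 fork, 18 of 26 kinetochore, 9 of 18 origin and 9 of 17 nucleotide supply genes were called lower. Of the G1 to S regulators 9 of 18 were lower and 3 higher. Mybl2, the B-Myb factor of the mitotic program, had 437 and 648 TPM in ESC and 15.3 and 15.3 in ESC_EPC, a change of −5.41 ± 0.61 (SE, edgeR adjusted p = 7.53e-06).

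The chemical progenitors stood above the ESC-derived ones for part of the set. In MEF_ciEPC against ESC_EPC, 18 of 39 genes were called higher and 1 lower, with a median log2 fold change of 1.002 against 0.08 for all genes. Of all genes 16.8% were called higher and 14.9% lower. Cdc45 had 13.1 and 15.6 TPM in ESC_EPC and between 36.2 and 95 TPM, with a median of 56.9, in MEF_ciEPC, a change of 1.98 ± 0.32 (SE, edgeR adjusted p = 0.000157). Cenpa, the histone variant that marks centromeres, had 32.4 and 45.5 TPM in ESC_EPC and between 134 and 232 TPM, with a median of 171, in MEF_ciEPC, a change of 1.84 ± 0.33 (SE, edgeR adjusted p = 0.000377). All MEF_ciEPC libraries exceeded both ESC_EPC libraries for these genes. Rrm2 (1.59 ± 0.58, SE, edgeR adjusted p = 0.0375) and Cdc6 (1.58 ± 0.38, SE, edgeR adjusted p = 0.00338) followed. Cdc20 went the other way without being called (−0.96 ± 0.39, SE, edgeR adjusted p = 0.0603), and without series 2 passage 22 it was called lower at −1.12 ± 0.39 (SE, edgeR adjusted p = 0.0262). Without that library Ccne1 (0.64 ± 0.44, SE, edgeR adjusted p = 0.243) and Rrm2 (1.41 ± 0.57, SE, edgeR adjusted p = 0.0514) lost their calls, leaving 16 higher and 2 lower. Leaving out the first ESC_EPC library left 7 genes called higher, and leaving out MEF_ciEPC series 2 left 11. From the other lists 20 of 39 spindle genes (1 lower), 10 of 31 fork, 8 of 26 kinetochore (1 lower), 4 of 18 origin, 5 of 18 G1 to S (1 lower) and 2 of 17 nucleotide supply genes (2 lower) were called higher.

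The gene called lower was Gins2, at −1.94 ± 0.22 (SE, edgeR adjusted p = 8.17e-06), yet its TPM was 66.1 and 71.1 in ESC_EPC and between 32.1 and 89.4 TPM, with a median of 76.7, in MEF_ciEPC. The deposited length of Gins2 differed between the libraries: it was 3736 and 3736 bases in ESC_EPC, 3719, 3196 and 3457 in MEF_ciHep and 807 to 1479 in MEF_ciEPC, a 4.63-fold range over the 28 libraries. Of its annotated exon bases 67.3% are shared with Gse1 on the opposite strand, and the labels do not say that counting used strand, so reads of these genes may not be told apart. Deposited lengths varied more than 2-fold for 5 of the 39 genes: Gins2, Cenpe (3.37-fold), Tyms (3.33-fold), Ccne2 (3.06-fold) and Mcm10 (2.07-fold). Kif20a shares 29.3% of its exon bases with Cdc23, Ccne2 17.4% with Ints8 and Ccna2 12.5% with Exosc9, and 11 genes share some exon bases with another gene.

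Almost every gene was lower in MEF_ciHep than in MEF_ciEPC. In MEF_ciHep against MEF_ciEPC, 38 of 39 were called lower and 0 higher, with a median log2 fold change of −2.51 against −0.07 for all genes, of which 14.8% were called lower and 17.8% higher. Hepatocyte markers summed to 0.78 to 90.8 TPM in MEF_ciEPC and 13373 to 31341 in MEF_ciHep, fibroblast markers to 56.5 to 840.3 and 45.1 to 63.8, and endothelial markers to 25.7 to 235 and 129 to 342. Their part was not tested. The mitotic genes had a median of −2.81 and the replication genes of −2.05. Bub1, a spindle checkpoint kinase, had between 34.4 and 101 TPM, with a median of 45.1, in MEF_ciEPC and 2.61, 3 and 6.25 TPM in MEF_ciHep, a change of −3.37 ± 0.36 (SE, edgeR adjusted p = 3.77e-06). Foxm1, the transcription factor of the mitotic genes, had between 27.9 and 91.4 TPM, with a median of 57.1, in MEF_ciEPC and 3.13, 7.27 and 7.53 TPM in MEF_ciHep, a change of −3.01 ± 0.35 (SE, edgeR adjusted p = 7.22e-06). Every MEF_ciHep library lay below every MEF_ciEPC library for both. Nusap1 fell by 3.37 on the log2 scale and Cenpa and Ccnb1 by 3.23 each. Pcna fell less, from between 178 and 571 TPM, with a median of 305, to 67.5, 106 and 95 TPM, a change of −1.55 ± 0.31 (SE, edgeR adjusted p = 0.000895). The smallest called fall was that of Ccne1 (−1.26 ± 0.37, SE, edgeR adjusted p = 0.0115), which without series 2 passage 22 was −0.79 ± 0.40 (SE, edgeR adjusted p = 0.117). Gins2 was not called (−0.10 ± 0.20, SE, edgeR adjusted p = 0.716), with 11.8, 17.4 and 17 TPM in MEF_ciHep and the length difference given above. Of the other lists 38 of 39 spindle, 23 of 26 kinetochore, 23 of 31 fork (1 higher), 13 of 18 origin, 9 of 17 nucleotide supply (1 higher) and 9 of 18 G1 to S genes (3 higher) were called lower.

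The step from MNF_ciEPC to the libraries labelled MNF_ciHep went with lower levels of part of the set. There 17 of 39 were called lower and 0 higher, with a median of −0.96 against 0.05 for all genes, of which 10.8% were called lower and 19.5% higher. Ccne2 fell most, from 37 and 48 to 4.38 and 6.52 TPM, a change of −2.44 ± 0.61 (SE, edgeR adjusted p = 0.00492). Nusap1 fell from 88.6 and 101 to 20.1 and 16.9 TPM, a change of −2.21 ± 0.47 (SE, edgeR adjusted p = 0.00158), and Cenpa from 238 and 235 to 50.1 and 40.5 TPM, a change of −2.13 ± 0.34 (SE, edgeR adjusted p = 0.000189). The groups did not overlap for the 3 genes. Ccnb1 changed by −1.73 ± 0.49 (SE, edgeR adjusted p = 0.0104). Ccne1 (0.27 ± 0.42, SE, edgeR adjusted p = 0.637) and E2f1 (−0.022 ± 0.27, SE, edgeR adjusted p = 0.972) had values near 0. The count was 9 without the first MNF_ciEPC library, 7 without the first MNF_ciHep library and 10 with the MEF_ciEPC libraries as separate samples. Fibroblast markers were higher in these ciHep libraries than in MNF_ciEPC, as given above, and their part was not tested. From the other lists 11 of 39 spindle, 7 of 26 kinetochore (1 higher), 6 of 31 fork (2 higher), 4 of 18 origin, 3 of 17 nucleotide supply (1 higher) and 6 of 18 G1 to S genes (3 higher) were called lower.

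The libraries labelled MNF_ciHep stood above MEF_ciHep for most of the set. In MNF_ciHep against MEF_ciHep, 31 of 39 genes were called higher and 0 lower, with a median of 1.65 against 0.04 for all genes, of which 17.8% were called higher and 16.1% lower. All 20 mitotic genes were called, against 11 of 19 replication genes, and 0 of the 4 clamp and nucleotide genes. Foxm1 stood at 3.13, 7.27 and 7.53 TPM in MEF_ciHep and 22.1 and 27.8 in MNF_ciHep, a change of 2.32 ± 0.36 (SE, edgeR adjusted p = 0.000108). Mki67 stood at 8.42, 7.41 and 11.3 TPM in MEF_ciHep and 34.4 and 47.2 in MNF_ciHep, a change of 2.22 ± 0.41 (SE, edgeR adjusted p = 0.00044). E2f1 stood at 3.47, 8.42 and 8.43 TPM in MEF_ciHep and 24.1 and 27.3 in MNF_ciHep, a change of 1.77 ± 0.27 (SE, edgeR adjusted p = 7.23e-05). Tpx2, a spindle assembly factor (2.11 ± 0.40, SE, edgeR adjusted p = 0.00056), and Mcm10 (2.09 ± 0.29, SE, edgeR adjusted p = 4.25e-05) were also among the largest. For Foxm1, Mki67 and E2f1 both MNF_ciHep libraries exceeded all 3 MEF_ciHep libraries. Pcna was not called (0.63 ± 0.32, SE, edgeR adjusted p = 0.124), nor was Rrm2 (0.62 ± 0.54, SE, edgeR adjusted p = 0.366), for which the groups overlapped at 33.6, 42.6 and 71.1 and 110.0 and 70.05 TPM. Pcna TPM did not overlap, at 67.5, 106 and 95 in MEF_ciHep and 203 and 194 in MNF_ciHep. Its deposited lengths were 1506, 1510 and 1501 bases and 1118 and 1155 in the same order. Rrm1 TPM did not overlap either, at 25.8, 30.7 and 36.8 and 62.4 and 59.1. Rrm1 (0.92 ± 0.23, SE, edgeR adjusted p = 0.00427) and Tyms, the thymidylate synthase (0.70 ± 0.26, SE, edgeR adjusted p = 0.0371), passed the p threshold but not 2-fold, as did Cdt1 (0.92 ± 0.30, SE, edgeR adjusted p = 0.0215) and Gins2 (0.70 ± 0.21, SE, edgeR adjusted p = 0.0127). Gins2 had 11.8, 17.45 and 17 TPM in MEF_ciHep and 46.9 and 79.7 in MNF_ciHep. Its deposited lengths were 3719, 3196 and 3457 bases and 2175 and 1052 in the same order. Tyms had 11.4, 34.7 and 24.55 TPM in MEF_ciHep and 61.85 and 51.2 in MNF_ciHep. Its lengths were 2318, 1135 and 1844 bases and 1131 and 1169. Calls use counts, and counts and TPM differ in size on these genes. Ccne1 was not called (0.99 ± 0.40, SE, edgeR adjusted p = 0.0532). Ccne2 was the 1 gene with a negative value (−0.64 ± 0.59, SE, edgeR adjusted p = 0.401), at 7.74, 6.75 and 12.8 TPM in MEF_ciHep and 4.38 and 6.52 in MNF_ciHep, with no overlap, and was not called. Hepatocyte markers were lower and fibroblast markers higher in MNF_ciHep, and their part was not tested. From the other lists 32 of 39 spindle, 16 of 26 kinetochore, 19 of 31 fork, 8 of 18 origin, 5 of 17 nucleotide supply (3 lower) and 5 of 18 G1 to S genes (1 lower) were called higher.

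Against hepatocytes from liver the outcome turned on which pHep library was used. The first pHep library exceeded the second for 36 of the 39 genes, with a median log2 ratio of 1.51, and had 1521 TPM summed over the set against 571. Cdk1 stood at 127 and 36.9 TPM in these libraries, Ccna2, the cyclin of S phase and early mitosis, at 27 and 6.48 and Rrm2 at 118 and 14. Alb was 14800.0 and 11138 TPM in them. Macrophage markers summed to 113 and 187 TPM and fibroblast markers to 12.7 and 357 in the same order, and their part was not tested.

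In MEF_ciHep against pHep, 11 of 39 genes were called lower and 0 higher, with a median of −0.73 against 0.01 for all genes, of which 10.8% were called lower and 15.1% higher. At an unadjusted p under 0.05, 1 gene, Tyms, was higher (0.65 ± 0.29, SE, edgeR adjusted p = 0.101). Of the 11, 9 were mitotic, led by Foxm1 (−1.68 ± 0.38, SE, edgeR adjusted p = 0.00253) and Aurka, a spindle pole kinase (−1.47 ± 0.43, SE, edgeR adjusted p = 0.0151), and 2 were Mcm6 and Gins1. Next among the mitotic genes were Cdk1 (−1.40 ± 0.38, SE, edgeR adjusted p = 0.01) and Nusap1 (−1.39 ± 0.47, SE, edgeR adjusted p = 0.0318). Without the first pHep library 0 were called lower and 4 higher, and without the second 24 were called lower. Leaving out MEF_ciHep replicate 1 or 2 left 3. In MNF_ciHep against pHep, 14 genes were called higher and 0 lower, with a median of 0.84 against 0.11 for all genes, of which 18.4% were called higher and 13.4% lower. Cdc45 (2.02 ± 0.37, SE, edgeR adjusted p = 0.000521) and Cdc6 (1.83 ± 0.46, SE, edgeR adjusted p = 0.00517) led, followed by Ccna2 (1.59 ± 0.47, SE, edgeR adjusted p = 0.0132) and Mcm10 (1.55 ± 0.33, SE, edgeR adjusted p = 0.0017). Without the first pHep library 36 were called higher, without the second 3, and without the second MNF_ciHep library 6. From the other lists, MEF_ciHep had 10 of 39 spindle, 5 of 26 kinetochore and 4 of 17 nucleotide supply genes called lower than pHep, with Rrm2b called higher. MNF_ciHep had 9 of 39 (1 lower), 7 of 26 and 1 of 17 (2 lower) called higher. Counts of the fork, origin and G1 to S lists against pHep are not given here. In MEF_ciHep their calls went both ways: Pold1, Pole, Recql4, Cdk6 and Ccnd1 were among those lower, and Pole2, Ccnd2, Mycn and Mybl2 among those higher.

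The brakes on the cycle moved in several of the same comparisons, each shown with its own values. Cdkn2b, the p15 inhibitor of the cyclin D kinases, had 87.9, 68.8 and 108 TPM in MEF and between 2.38 and 30.5 TPM, with a median of 5.07, in MEF_ciEPC, and 101 and 138 TPM in MNF and 5.85 and 4.93 in MNF_ciEPC. It was called lower in both conversions, with changes of −3.80 ± 0.37 (SE, edgeR adjusted p = 8.57e-07) and −4.59 ± 0.41 (SE, edgeR adjusted p = 3.63e-07). It was called higher again in MEF_ciHep against MEF_ciEPC (2.79 ± 0.36, SE, edgeR adjusted p = 1.66e-05) and in MNF_ciHep against MNF_ciEPC (3.85 ± 0.41, SE, edgeR adjusted p = 6.83e-06). Cdkn1a, the p21 inhibitor, had 349.5, 284 and 317 TPM in MEF, 437 and 461 in MNF and 165 and 159 in MNF_ciEPC, and it changed by −1.18 ± 0.25 (SE, edgeR adjusted p = 0.00103) from MEF and −1.57 ± 0.27 (SE, edgeR adjusted p = 0.000138) from MNF. In the ciHeps it rose by 1.39 ± 0.25 (SE, edgeR adjusted p = 0.000315) for MEF_ciHep and 1.66 ± 0.27 (SE, edgeR adjusted p = 0.000195) for MNF_ciHep.

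For Cdkn2a, which encodes p16 and p19ARF, and Cdkn1c, the p57 inhibitor, every MNF library had higher TPM than every MEF library. Cdkn2a had 34.8, 21.9 and 64.4 TPM in MEF, 112 and 139 in MNF and 29.4 and 32 in MNF_ciEPC. It was higher in MNF than in MEF by 1.59 ± 0.34 (SE, edgeR adjusted p = 0.00282), changed by −2.18 ± 0.38 (SE, edgeR adjusted p = 0.000198) from MNF to MNF_ciEPC and had an interaction of −2.40 ± 0.50 (SE, edgeR adjusted p = 0.00532). Cdkn1c had 30.4, 209.8 and 75.6 TPM in MEF, 510.1 and 265 in MNF and 39.2 and 27.9 in MNF_ciEPC, with an interaction of −4.28 ± 0.78 (SE, edgeR adjusted p = 0.00237). That interaction also uses the ciEPC libraries, and the fitted Cdkn1c difference between the fibroblasts alone is not given here. In MEF_ciEPC, Cdkn1c was between 1.64 and 551 TPM, with a median of 173, the lowest being series 2 passage 22. Rbl2, the p130 pocket protein of quiescent cells, had 42.7 and 43.4 TPM in MNF and 3.25 and 5.72 in MNF_ciEPC, a change of −3.38 ± 0.31 (SE, edgeR adjusted p = 4.98e-07). Among the 21 brakes 5 were called higher and 8 lower in MNF_ciEPC against MNF, 3 and 6 in MEF_ciEPC against MEF, 7 and 3 in MEF_ciHep against MEF_ciEPC, 8 and 2 in MNF_ciHep against MNF_ciEPC and 7 and 1 in ESC_EPC against ESC. Over all genes, the shares called higher and lower in that order were 18.4% and 21.8%, 17.6% and 15.8%, 17.8% and 14.8%, 19.5% and 10.8%, and 18.5% and 14.7%. Some of the brake counts are near these shares. Not all members of this list restrain the cycle only: Lin9 and Lin54, which also serve the activating B-Myb complex, rose with the mitotic genes in MNF_ciEPC, by 1.99 ± 0.27 and 2.31 ± 0.29 (SE).

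For MEF_ciEPC against MEF, MNF_ciEPC against MNF, ESC_EPC against ESC and MNF_ciEPC against MEF_ciEPC, the other called brakes had the following log2 values. The adjusted p was under 0.05 throughout. Brakes called in the remaining comparisons are not all named here. From MEF to MEF_ciEPC, Btg1 (1.70), Btg2 (1.75) and Trp53inp1 (1.19), which restrain growth or respond to p53, were higher. Cdkn2c (−1.71), Cdkn2d (−1.25), Rbl2 (−1.29) and Ccng1 (−1.12) were lower. From MNF to MNF_ciEPC, Btg1 (1.19), Btg2 (1.396) and E2f4 (1.13) were higher and Cdkn2c (−2.30), Ccng2 (−1.74) and Rb1 (−1.02) lower. Btg1, Btg2 and Cdkn2c thus moved in the same direction in both conversions, which have no library in common. From ESC to ESC_EPC, Rb1 (2.78), Btg2 (2.48), Cdkn2b (2.45), Ccng1 (1.76), Trp53inp1 (1.73), Btg1 (1.07) and Gadd45a (1.02) were higher and Cdkn2c (−2.26) lower. In MNF_ciEPC against MEF_ciEPC the 1 called brake was Cdkn1c (−2.46).

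**Figure D5:**
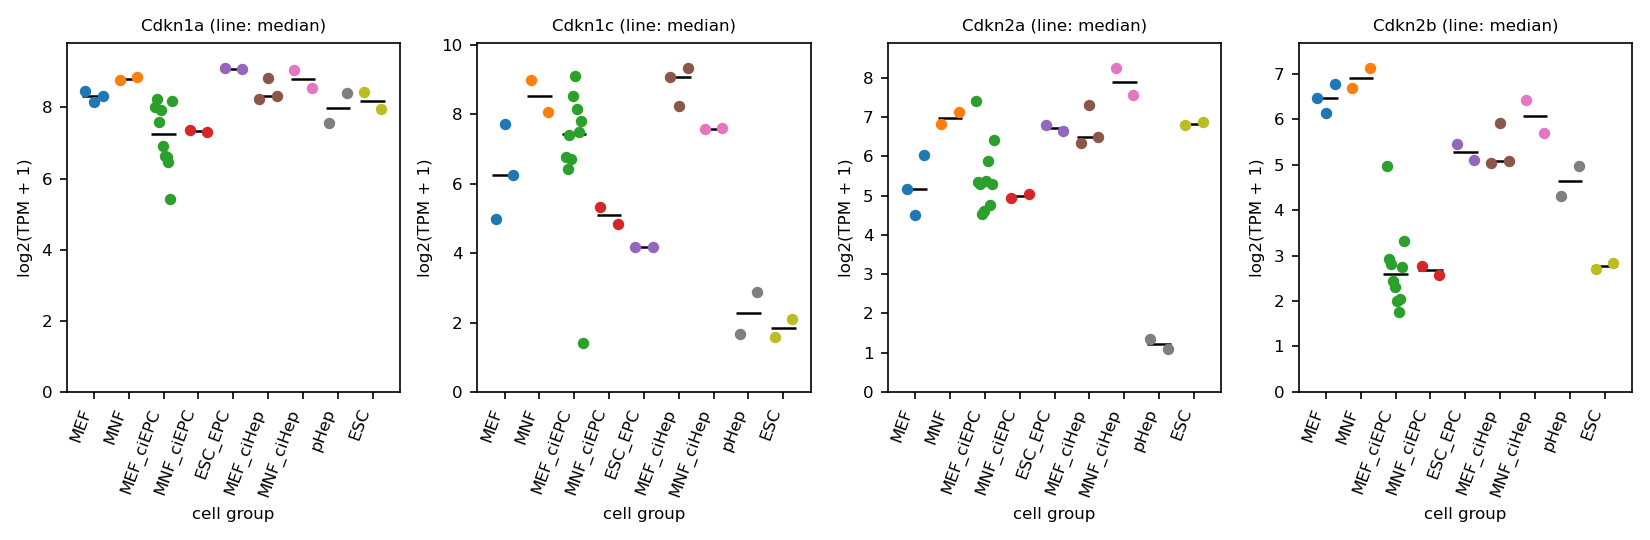
Level of 4 inhibitors of the cyclin-dependent kinases as log2(TPM + 1) in each library (points) of the 9 groups, with the group median as a line. Cdkn2b is low in MEF_ciEPC, MNF_ciEPC and ESC, and Cdkn2a and Cdkn1c are higher in MNF than in MNF_ciEPC.

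Among the G1 to S regulators Mybl2 had a large change from both sources. It had 8.79 and 5.5 TPM in MNF and 317 and 332 in MNF_ciEPC, a change of 6.17 ± 0.65 (SE, edgeR adjusted p = 1.6e-06). It had 35.5, 47.3 and 26.1 TPM in MEF and between 107 and 505 TPM, with a median of 278, in MEF_ciEPC, a change of 2.97 ± 0.46 (SE, edgeR adjusted p = 9.06e-05), so it was called in both conversions. Cdk2, the partner kinase of cyclin E, was called higher in both as well, by 1.62 ± 0.17 (SE, edgeR adjusted p = 2e-06) from MEF and 2.77 ± 0.20 (SE, edgeR adjusted p = 6.21e-08) from MNF. Ccnd2, a cyclin D, was called lower in both, with changes of −3.30 ± 0.67 (SE, edgeR adjusted p = 0.000821) and −4.38 ± 0.74 (SE, edgeR adjusted p = 0.00013). The MEF_ciEPC and MEF libraries did not overlap for Mybl2 or for Ccnd2.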

How the data were processed

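The deposited expected counts and TPM values were made by the authors with RSEM 1.2.4 on mm10, per the submitters' processing notes, and the aligner and annotation release are not given in the sources used here. FPKM values are also deposited, per the file headers, and entered no test. The deposited gene lengths and effective lengths, treated as a score in bases, were used only as a check. Members and lists were chosen with earlier results of these data known. Expected counts were rounded to whole numbers and fitted in edgeR 4.0.16 (R 4.3.3; TMM, low-count filter with a minimum count of 10) over all 9 groups. The 10 MEF_ciEPC libraries were summed per series, giving 20 samples and 16062 genes. The quasi-likelihood test was used with Benjamini-Hochberg adjustment over all genes. The passage trend used the 10 libraries with series and log2 passage, with no fold minimum. DESeq2 1.42.0 and limma 3.58.1 on log2(TPM + 1) were alternatives, with RLE scaling, other filters, a replicate block, other treatments of the passages and leaving out each sample. The procedure was also run on simulated data. The outcome is not given here, and no result above rests on it. Depth was 1439670 to 6133147 counts per library. Replicate numbers did not pair samples: 0 of 73 same-numbered pairs had deviations correlated above 0.1. Named per comparison were the 4 called genes with the largest change, genes called against the majority and those not called where 8 or fewer. A fixed set of 17 genes spanning the roles was also named. Other genes named were chosen after their values were seen.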

Additional observations from a re-analysis of the deposited data

Results flagged for a closer look

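Each of the 39 genes was flagged where its highest or lowest MEF_ciEPC library stood apart by a gap large against the range of the 10. For 1 gene, chance flags about 1 in 20 such groups. In the library labelled MEF_ciEPC series 2 passage 22, 11 genes were flagged. Genes measured in 1 library are not separate observations, and the rule was not applied to all genes, so that rate cannot be set against the 11. The helicase genes among the 11 were Mcm2 at 266 TPM, Mcm3 at 434, Mcm4 at 239.7, Mcm5 at 319 and Mcm6 at 319. The others were Gins1 at 118 TPM, Ccnb2 at 179, Ccne1 at 148, Bub1b at 121, Kif20a at 159.5 and E2f1 at 70.6. The pluripotency markers of this library are given above, and their part was not tested. In series 2 passage 1, Ccna2 stood apart at 206 TPM.

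The change from fibroblast to ciEPC differed between the origins by an interaction test for 36 genes. The largest were Cdc6 at 3.88, Rrm2 at 3.19, Cdc20 at 3.10 and Ccnb1 at 3.03 on the log2 scale, larger from MNF in each case.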

How the results depend on the processing

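Of the recomputed counts of called genes and of promoter letters, 391 stayed within 1.5 times of the value reported and 33 did not. The 391 include counts of 0 that stayed 0, so they say less about the counts above 0. With no fold minimum, MEF_ciEPC against MEF had 8 genes higher and 3 lower and ESC_EPC against ESC had 1 higher. With limma on log2(TPM + 1), counts were 7 higher in MEF_ciEPC against MEF, 0 lower in MEF_ciEPC against ESC_EPC, 1 lower in MEF_ciHep against pHep and 30 higher in MNF_ciHep against pHep. Using MEF_ciEPC up to passage 5, or leaving out series 2 passage 22, gave 1 gene lower against MEF. In MEF_ciEPC against ESC_EPC, 2 were lower without that library and with a minimum count of 50. With the MEF_ciEPC libraries as separate samples, counts were 10 for MNF_ciHep against MNF_ciEPC, 7 for MEF_ciHep against pHep and 9 for MNF_ciHep against pHep. With only the compared groups fitted, they were 0 and 3 against pHep. CHR letters within 200 bases before the start were in 1 replication gene and 6 mitotic genes.

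Leaving out each sample in turn gave 2 to 6 genes higher and 0 to 1 lower in MEF_ciEPC against MEF, 21 to 34 in the interaction and 7 to 18 higher in MEF_ciEPC against ESC_EPC. It gave 7 to 17 lower in MNF_ciHep against MNF_ciEPC, 0 to 24 lower and 0 to 4 higher in MEF_ciHep against pHep, and 3 to 36 higher in MNF_ciHep against pHep. With the replicate block the counts were 3 (MEF_ciEPC against MEF), 35 (MNF_ciEPC against MNF), 29 (interaction), 37 (MNF against MEF) and 14 (MNF_ciHep against MNF_ciEPC), all within 1.5 times of those reported. In the passage trend, 0 genes were called with no replicate block.

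The following log2 values changed sign. With limma, ESC_EPC against ESC was −0.52 for Gins2, 0.32 for Ccne2 and 0.00916 for Cdc20, and MEF_ciEPC against ESC_EPC was 0.067 for Gins2. Without ESC replicate 2, Ccne2 was 0.58. Gins2 in MEF_ciHep against MEF_ciEPC was 0.00582 with RLE scaling and 0.00772 with DESeq2. Leaving out each sample gave −0.044 to 0.21 for E2f1 in MNF_ciEPC against MNF. In MEF_ciHep against pHep it gave −2.26 to 0.45 for Aurka, −2.10 to 0.014 for Cdk1 and −2.16 to 0.45 for Nusap1, the positive values without pHep replicate 1. The passage slope was −0.10 for Ccne1 without series 2 passage 22, and without both passage 22 libraries it was −0.25 for Ccne1, −0.042 for E2f1 and −0.00746 for Mcm6. The cause of these changes was not tested.

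With limma on TPM the median of all genes moved by 0.22 (MEF_ciEPC against MEF), 0.13 (MNF_ciEPC against MNF), 0.13 (ESC_EPC against ESC), −0.29 (MEF_ciHep against MEF_ciEPC), −0.19 (MNF_ciHep against MNF_ciEPC) and 0.16 (MNF_ciHep against pHep), and with RLE scaling by 0.11 for MEF_ciHep against MEF_ciEPC. Groups of 2 libraries limit every comparison that uses them.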
